A study of Arabidopsis thaliana with 2 samples.

Results

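The MIR779 locus of Arabidopsis thaliana was described from every sequence tag that carries the precursor name mir779 in 2 SPARE libraries, 1 from plants of the genotype fiery and 1 from wild type of the ecotype Col-0. The name mir779 is 1 of 153 precursor names in these libraries. It covered 51 of the 1755 distinct tags in fiery and 19 of the 677 in wild type, or 1856 of 33192 reads (5.59%, exact 95% interval 5.35 to 5.84) and 279 of 12129 reads (2.30%, 2.04 to 2.58). SPARE ligates an adaptor to free 5′ ends of RNA and copies the RNA with primers placed downstream in each precursor, so that the first base of a tag marks a 5′ end, such as that of a fragment left by a cut. The labels give neither the mutated gene nor the allele of fiery, nor its ecotype. For each library, seedlings harvested at 2 weeks were mixed with leaf and inflorescence tissue harvested at 5 weeks, all grown at 23 °C with 16 h of light, so that no value belongs to a single tissue. Fewer cells that make an RNA and less of it per cell cannot be told apart in such a mixture. There was 1 library per group and thus no test between the groups. The intervals are exact 95% intervals and cover counting error alone, because reads amplified by PCR carried no molecular identifiers and several may come from 1 molecule. The locus was chosen by the number and spread of its 5′ ends in these same files, so these values are given as a description.

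As background, plant microRNAs are cut from a folded precursor by DICER-LIKE enzymes in the nucleus. A conserved precursor usually gives a single duplex, whereas young and long hairpins can be cut several times in a row along the stem, each cut about a duplex length from the last. The annotation describes MIR779 as a microRNA of unknown function. Small nucleolar RNAs (snoRNAs) of the box C/D class guide the methylation of ribosomal RNA, and in plants they often lie in clusters that are copied as a single transcript and then trimmed. In Arabidopsis, the gene FIERY1 encodes a nucleotidase, and its loss is known to weaken 5′ to 3′ exoribonucleases. The labels do not say that fiery is a mutant of this gene.

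The precursor (MIR779, AT2G22496) lies on the plus strand at chr2:9560761-9560923 (TAIR10.1), is 163 nt long and overlaps no protein-coding gene. The nearest protein-coding genes, both on the minus strand, are CYCD2;1 and UCP5. The near edge of CYCD2;1 lies 4593 nt before the precursor, and that of UCP5 lies 1850 nt after it. Both annotated mature RNAs, miR779.2 at nt 106 to 126 and miR779.1 at nt 142 to 162 of the precursor, lie on the 3′ arm. In the fold predicted by RNAfold (-69.1 kcal/mol) 138 of the 163 nt were paired, around a loop of 3 nt at nt 84 to 86. The precursor is shown with miR779.2 and then miR779.1 in capitals, and the mature RNAs are shown with their seeds (bases 2 to 8) in capitals, since the ends described in the results are placed against them.
precursor: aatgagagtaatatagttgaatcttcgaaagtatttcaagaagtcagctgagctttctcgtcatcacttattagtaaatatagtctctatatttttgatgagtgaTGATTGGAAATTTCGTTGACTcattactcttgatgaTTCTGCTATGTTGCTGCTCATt
miR779.2: uGAUUGGAaauuucguugacu
miR779.1: uUCUGCUAuguugcugcucau
The mature RNAs have different seeds.

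Upstream of the precursor, on the same strand, the annotation holds 2 snoRNA genes. They are snoR128 (AT2G07605, chr2:9560355-9560446, 92 nt), which begins 406 nt before the precursor, and snoR129 (AT2G07615, chr2:9560536-9560623, 88 nt), which begins 225 nt before it. They are printed whole because most reads that began outside the hairpin began within 2 nt of their first bases. Capitals mark the sequence GATGA near the 5′ end, the core of a box C, and every CTGA, the letters of a box D.
snoR128: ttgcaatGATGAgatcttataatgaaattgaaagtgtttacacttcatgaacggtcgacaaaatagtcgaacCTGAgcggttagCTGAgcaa
snoR129: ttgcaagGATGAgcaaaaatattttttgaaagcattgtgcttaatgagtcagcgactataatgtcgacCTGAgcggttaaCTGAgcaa
The motifs were searched on the strand of the RNA only and do not overlap each other. GATGA began at nt 8 in both genes, and the last CTGA ended 4 nt before the end of both. Of the 287 annotated snoRNAs, 135 (47.0%) held GATGA in their first 20 nt and CTGA in their last 20 nt. The sequences of snoR128 and snoR129 were identical at 12 of the first 13 nt and at 19 of the last 20 nt.

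In wild type, most mir779 reads began at the first bases of the snoRNAs, whereas in fiery most began inside the hairpin. Of the wild-type reads, 235 of 279 (84.2%, 79.4 to 88.3) began within 2 nt of the first base of snoR128 or snoR129, against 563 of 1856 (30.3%, 28.2 to 32.5) in fiery. Inside the annotated precursor lay 34 wild-type reads (12.2%, 8.59 to 16.6) and 1245 fiery reads (67.1%, 64.9 to 69.2). All ends upstream of the precursor together held 242 wild-type reads (86.7%) and 569 fiery reads (30.7%). Among precursor names with at least 30 reads and sense tags, at least 25% of the reads lay upstream of the precursor in 5.36% of 56 names in fiery and 9.09% of 44 in wild type. The median upstream share was 0 in each library. The counts inside the hairpin and at the snoRNAs come from the same library, so that these shares do not depend on its total. With only tags longer than 35 nt the inside shares were 66.5% in fiery and 12.3% in wild type.

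**Figure D1:**
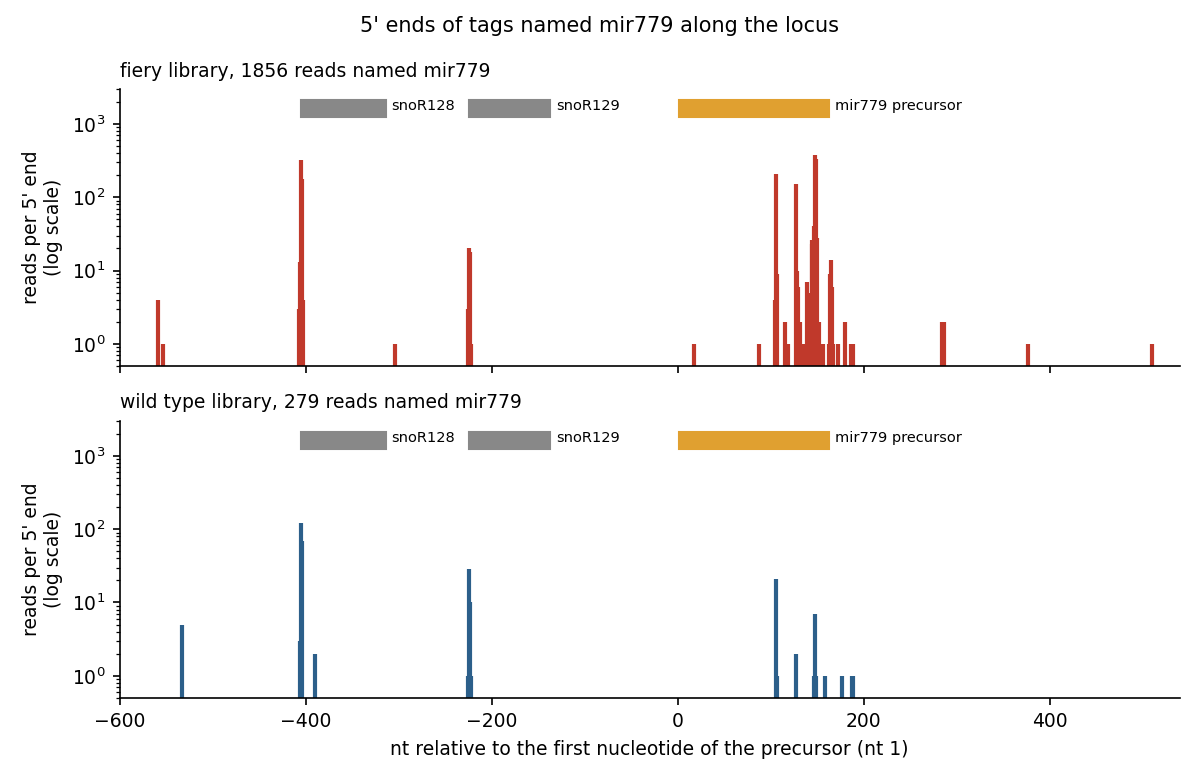
Reads at each 5′ end (vertical lines, log scale) against the position in nt relative to the first nucleotide of the precursor, for the fiery library above and the wild-type library below, with the annotated snoRNAs (grey) and the precursor (orange) as bars. The tallest wild-type line, 123 reads, stands at the first base of snoR128, and the tallest fiery line, 372 reads, stands at nt 148 in the precursor.

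**Figure D2:**
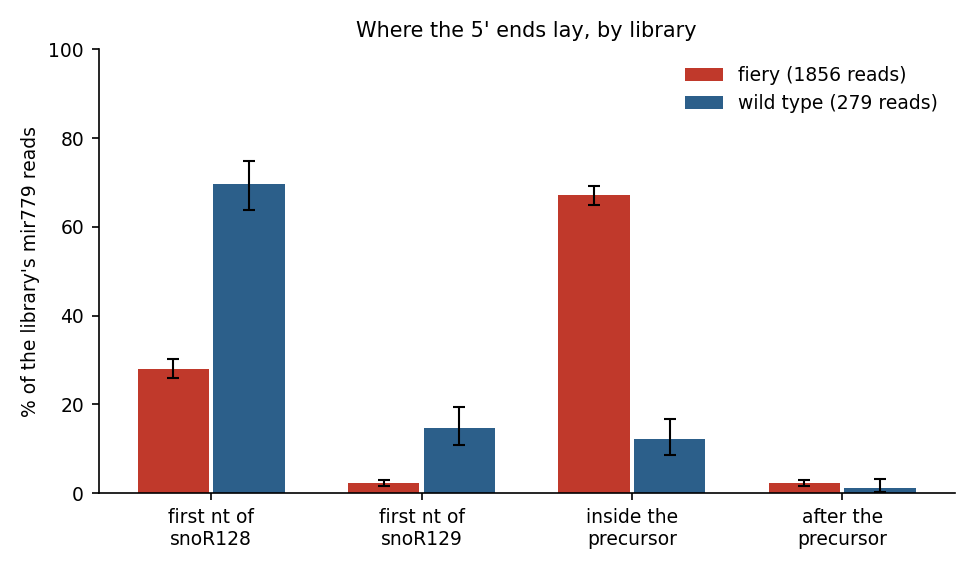
Share of each library's mir779 reads whose 5′ end lay within 2 nt of the first base of snoR128 or of snoR129, inside the precursor or after it. Bars are the shares and error bars their exact 95% intervals. snoR128 held 28.1% in fiery and 69.5% in wild type, and the precursor 67.1% and 12.2%.

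The ends at snoR128 fell on its annotated first base and the next base. In fiery, 323 reads began at the first base, 178 at the next, 13 at the base before, 4 at nt 3 and 3 at the base 2 nt before the gene. In wild type these were 123, 68, 3, 0 and 0 reads. Of the reads at the first and the next base, the first had a share of 64.5% (60.1 to 68.7) in fiery, against 64.4% (57.2 to 71.2) in wild type, so that the division between the neighbouring bases differed by less than counting error. The most abundant upstream tags, with 323 reads in fiery and 123 in wild type, are shown because they are the start of the gene printed above. They are of 40 and 50 nt, the longest tags of each library.
fiery upstream tag: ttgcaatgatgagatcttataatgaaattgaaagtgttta
wild-type upstream tag: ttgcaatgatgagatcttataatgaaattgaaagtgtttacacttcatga
Within snoR128 but after these starts lay 2 reads in wild type, 391 nt before the precursor, and 0 in fiery.

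The ends at snoR129 had the same form at a lower count. In fiery, 20 reads began at its first base, 18 at the next, 3 at the base before and 1 at nt 3. In wild type, 29, 10, 1 and 1 reads lay at these positions. The share of the first of the 2 main bases was 52.6% (35.8 to 69.0) in fiery, against 74.4% (57.9 to 87.0) in wild type, and these intervals overlap. snoR129 gave 42 reads beside 521 of snoR128 in fiery (0.0806 per read of snoR128) and 41 beside 194 in wild type (0.211 per read). The odds ratio of these counts was 0.382 (0.234 to 0.622), that is, snoR129 was lower against snoR128 in fiery. A tag shows only the first 40 nt (fiery) or 50 nt (wild type) of a fragment, so that the tag alone does not show whether the fragment reached the hairpin. The site of the primer is not given in the labels. Among tags shorter than the longest of their library, 5 fiery reads in 4 tags and 3 wild-type reads in 3 tags ended at nt 214, 51 nt after the precursor, and nt 214 was taken as the primer's end. Another 41 fiery reads, in 1 tag, ended at nt 181, and 2 ended at nt 166. A copy from nt 214 to the first base of snoR128 would span 620 nt, the hairpin included.

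Few upstream reads lay elsewhere. In fiery, 4 reads began 560 nt, 1 began 554 nt and 1 began 305 nt before the precursor, and in wild type 5 began 534 nt before it. No other precursor name had a tag within 2 nt of the first base of any annotated snoRNA. mir775 is the only other one with a snoRNA annotated within 1000 nt upstream on its strand (157 nt before the precursor). It was named after its values were seen. It had 34 of 74 fiery reads and 18 of 30 wild-type reads upstream, most often 235 nt before its precursor, which is 78 nt before that snoRNA (14 and 11 reads).

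Inside the hairpin the main ends lay at steps of 21 nt from the start of miR779.2, save those at nt 149. The step was noticed in these data and was not tested. At nt 106, the first nucleotide of miR779.2, which a cut nearer the loop would expose, lay 209 fiery and 21 wild-type reads. At nt 127, the first nucleotide after miR779.2, which a cut nearer the base of the stem would expose, lay 154 fiery and 2 wild-type reads. At nt 148, a further 21 nt down the stem, lay 372 fiery and 7 wild-type reads, and at nt 149 lay 335 and 1. The 21 nt pieces that begin at these positions are shown with the bases that belong to miR779.1 in capitals.
nt 106 to 126: tgattggaaatttcgttgact
nt 127 to 147: cattactcttgatgaTTCTGC
nt 148 to 168: TATGTTGCTGCTCATtatgtt
The most abundant tags inside the precursor, at nt 148 in fiery (372 reads) and at nt 106 in wild type (21 reads), were these.
fiery inside tag: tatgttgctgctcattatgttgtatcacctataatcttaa
wild-type inside tag: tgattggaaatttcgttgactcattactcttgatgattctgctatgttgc
The piece from nt 127 thus shares 6 nt with miR779.1, and the piece from nt 148 shares 15 nt with it, displaced by 6 nt towards the base of the stem.

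Of the reads inside the precursor, 1089 of 1245 in fiery (87.5%, 85.5 to 89.3) and 32 of 34 in wild type (94.1%, 80.3 to 99.3) began at nt 106, 127 or 148 or at the nucleotide after them. At the exact positions these were 735 (59.0%) and 30 (88.2%), because fiery had nearly as many reads at nt 149 as at nt 148. The sites and the window were chosen from these same reads, so these shares only describe them. Of the 32 wild-type reads, 22 lay at nt 106 or the next nucleotide, where the step begins, and count whatever its length. The ends at nt 106 and nt 127 were sharp. Of the fiery reads within 2 nt, nt 106 held 94.1% (90.2 to 96.8) of 222 and nt 127 held 90.6% (85.2 to 94.5) of 170. At nt 148 this share was 47.9% (44.4 to 51.5) of 776, and nt 149 held 43.2%. In the predicted fold, nt 106 was paired with nt 63 and nt 148 with nt 15 on the 5′ arm, and nt 127 was unpaired next to a pair of nt 126 and nt 42. Of the 21 nt of miR779.2, 19 were paired in this fold, as were 19 of miR779.1 and 16 of the piece between nt 127 and nt 147.

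**Figure D3:**
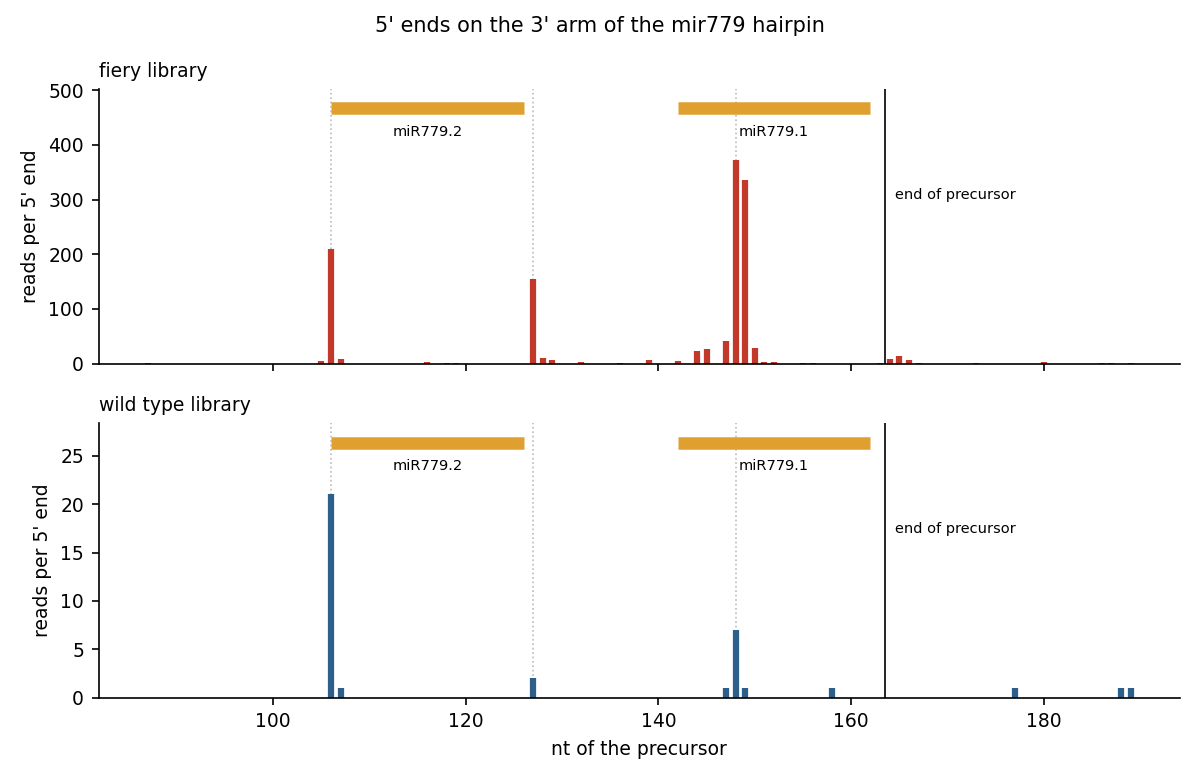
Reads at each 5′ end (bars, linear scales that differ between the panels) against the nt of the precursor, for fiery above and wild type below, with the mature RNAs in orange, dotted lines at nt 106, 127 and 148, and a black line at the end of the precursor. The fiery bars rise at nt 106, 127, 148 and 149, and the highest wild-type bar is nt 106 with 21 reads.

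The annotated ends of miR779.1 itself were nearly empty. At nt 142, its first nucleotide, lay 5 fiery and 0 wild-type reads, and at nt 163, the nucleotide after it, lay 1 and 0. Within 1 nt these were 5 and 10 fiery reads (0.269% and 0.539% of the mir779 reads) and 0 wild-type reads. A wild-type count of 0 allows a share of up to 1.08% (3 counts), or 1.31% by the exact interval. A tag from these sites would run over 73 and 52 nt to nt 214, longer than the longest tag in either library, so that, if the primer lay there, the gaps in the tag lengths did not hide them. The ends of miR779.2 within 1 nt held 222 and 164 fiery reads (11.96% and 8.84%), and 22 and 2 wild-type reads (7.89% and 0.717%). All 4 annotated ends together took up 21.6% (19.8 to 23.5) of the mir779 reads in fiery, against 8.60% (5.59 to 12.5) in wild type.

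Other ends in the hairpin were low in fiery, and wild type, with 34 reads inside the precursor in all, showed few of them. Between nt 108 and nt 126 lay 4 fiery reads at 3 positions, and wild type had 0. Between nt 129 and nt 146 lay 70 fiery reads, with 26 at nt 145, 23 at nt 144, 7 at nt 139 and 6 at nt 129. nt 147 held 41 fiery reads, all in the tag of 35 nt that ended at nt 181, and 1 wild-type read. Before nt 105 there were 2 fiery reads, 1 at nt 18 on the 5′ arm and 1 at nt 87 just after the predicted loop, and 0 in wild type. From nt 150 to the end of the precursor lay 35 fiery reads, 28 of them at nt 150, and 1 wild-type read, at nt 158.

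Beyond the precursor and up to nt 214 lay 36 fiery reads at 9 positions, among them 9, 14 and 6 at nt 164, 165 and 166, and 3 wild-type reads, at nt 177, 188 and 189. nt 165 is 21 nt from nt 144, which is not one of the steps from nt 106. This pair was picked after its counts were seen and was not tested. At nt 169, the next step of 21 nt after nt 148, fiery had 0 reads. This allows up to 0.162% of its mir779 reads (3 counts), or 0.199% by the exact interval. If the primer lay at nt 214, wild type could show no end at nt 166 to 169, since tags of 46 to 49 nt were absent from it, nor could fiery at nt 176 to 179, with no tags of 36 to 39 nt. Past nt 214 lay 6 fiery reads at 4 positions (nt 284, 286, 377 and 510) and 0 wild-type reads. A primer ending at nt 214 could not have copied these 6 reads, and their origin was not tested.

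The ends lay at many positions, and most reads lay at few of them. The 1856 fiery reads fell on 51 positions, of which 18 held 1 read, and the 279 wild-type reads fell on 19, of which 9 held 1 read. The 6 most used positions took up 84.6% of the reads in fiery (nt 148, 149, 106 and 127 and the first 2 bases of snoR128) and 92.5% in wild type (the first 2 bases of snoR128 and of snoR129, nt 106 and nt 148). The main end was nt 148 in fiery, with 20.0% (18.2 to 21.9) of the reads, and snoR128 in wild type, with 44.1% (38.2 to 50.1). The main end held under 50% of the reads in 33.9% of 56 precursor names in fiery and in 43.2% of 44 in wild type, with medians of 66.0% and 58%. As these values chose the locus, nothing is read from them. Drawn down to 279 reads, the fiery library would show 25.3 positions on average, against the 19 of wild type. The effective number of positions (the inverse of the summed squared shares) was 7.50 in fiery and 3.67 in wild type.

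Of 3 other young or long precursors, mir863 also had many upstream reads, and mir822 and mir163 had few or none. mir822 had 0 of 1558 fiery and 0 of 201 wild-type reads upstream, and an effective number of 1.87 and 1.30 positions. mir863 had 133 of 897 fiery reads (14.8%) and all 17 wild-type reads upstream, and 5.99 effective positions in fiery. mir163 had 2 of 315 and 3 of 39 reads upstream, with 1.52 and 7.42 effective positions. With 1 library each, these differences between precursors have no replicate check, and each precursor has its own primer.

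Most positions of wild type were found in fiery as well. The libraries shared 14 positions, 73.7% of the wild-type and 27.5% of the fiery positions, which held 96.4% of the wild-type and 90.4% of the fiery reads. The agreement of the libraries was measured as the sum over positions of the smaller of the 2 shares, which is 1 for identical profiles. It was 0.418 over all ends, 0.874 over upstream ends alone and 0.499 over ends inside the precursor alone. Without mir405, whose copies were counted together, it was under 0.5 in 40% of the 30 names with at least 30 reads in each library, whose median was 0.647.

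Against the whole library, the hairpin ends were higher in fiery, while snoR128 was higher only relative to the median ratio of 0.520. The ends inside the precursor made up 3.75% of all reads in fiery and 0.280% in wild type, a ratio of 13.4 (9.52 to 19.4). Of the 40 precursor names with at least 100 reads inside their precursors in the 2 libraries together, this ratio was at least 2 in 52.5%. The median was 2.44, and mir779 ranked 13 from the highest. Fiery, with more reads in all, could reach these 100 reads alone, so that the names used can lean towards fiery. Tags of 35 nt or less made up 22.4% of all reads in fiery and 65.6% in wild type, but 2.59% and 0.717% of the mir779 reads. With only tags longer than 35 nt the inside ratio was 5.73 (4.08 to 8.31). Of the 33 names with at least 100 such reads in the 2 libraries together, 45.5% were at least 2 on this measure, and the median was 1.23. The inside ratio was 25.7 relative to the median ratio of 0.520 over 31 precursor names that reached 30 reads in both libraries. The pooled mir405 copies were among them. With each distinct tag counted once the inside ratio was 1.43 (0.606 to 3.91). This came from 26 fiery and 7 wild-type tags at as many positions, so that it compares numbers of positions, not of reads. Over the 47 names with at least 100 reads in the 2 libraries together, the median ratio of all tags was 1.12. Values relative to the median thus depend on the names used, and those given here use 0.520 throughout. The floor of 30 reads was met by 56 names in fiery and 44 in wild type, counting sense tags. It thus left out more names for low wild-type counts, which can lower the median of 0.520.

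The snoR128 ends made up 1.57% of all reads in fiery and 1.60% in wild type, a ratio of 0.981 (0.831 to 1.16). It was 0.435 (0.368 to 0.516) with only tags longer than 35 nt and 1.89 (1.60 to 2.24) relative to the median ratio of 0.520. Relative to the median of 1.12 over 47 names it would lie below 1, with an interval that includes 1. The snoR129 ends held 0.127% and 0.338%, a ratio of 0.374 (0.238 to 0.590), which was 0.166 with only tags longer than 35 nt and 0.719 (0.456 to 1.13) relative to the median ratio. The whole of mir779 had a ratio of 2.43 (2.14 to 2.77). Of the 47 precursor names with at least 100 reads in the 2 libraries together, 40.4% were at least 2-fold higher in fiery. The ratio of the whole of mir779 is given here under other settings too. It was 4.67 (4.12 to 5.32) relative to the median ratio, 1.06 (0.931 to 1.20) with only tags longer than 35 nt and 1.04 (0.601 to 1.86) with distinct tags counted once, and the last 2 intervals include 1. Set against snoR128 within the same library, the hairpin had 2.39 reads per read of snoR128 in fiery and 0.175 in wild type. The odds ratio was 13.6 (9.27 to 20.5) and does not depend on the library totals. From nt 214, copies would span 620 nt to snoR128 and 109 nt to nt 106, and an effect of length was not tested.

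The sites within the hairpin did not share 1 ratio. Counted with the next nucleotide, nt 106 had 218 fiery and 22 wild-type reads, a ratio of 3.62 (2.33 to 5.90). nt 127 had 164 and 2, a ratio of 29.96 (8.16 to 249.5), and nt 148 had 707 and 8, a ratio of 32.3 (16.3 to 75.1). The interval of nt 106 lies below those of nt 127 and nt 148, whose own intervals overlap widely. Of the reads inside the precursor, nt 106 and the next held 17.5% in fiery and 64.7% in wild type, and nt 148 and the next held 56.8% and 23.5%. With only tags longer than 35 nt the ratios were 1.61 (1.03 to 2.62), 13.3 (3.62 to 110.6) and 14.3 (7.23 to 33.3), in the same order. The wild-type counts behind these ratios are small.

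**Figure D4:**
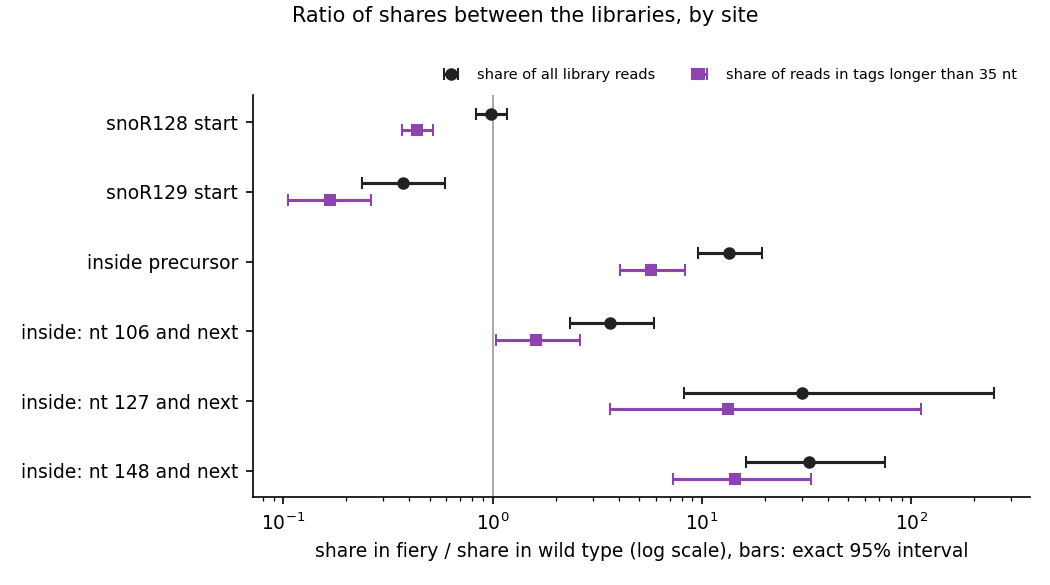
Ratio of the share in fiery over the share in wild type (log scale) for the ends at snoR128 and snoR129, all ends inside the precursor, and each of nt 106, 127 and 148 with the next nucleotide, as shares of all reads (circles) and of reads in tags longer than 35 nt (squares). Bars are exact 95% intervals for counting error, and the line marks 1. snoR128 lies at 0.981 and 0.435, the whole precursor at 13.4 and 5.73.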

How the data were processed

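The deposited files pair precursor names and tag sequences with an abundance; as deposited, these are whole-number counts of reads per distinct tag, with no scaling seen in the values. Bowtie and TAIR10 are named in the submitters' processing notes, without settings. Per the labels' protocols, rRNA-depleted RNA was ligated to an adaptor, reverse transcribed in 10 multiplex reactions and amplified in 18 PCR cycles. Tags were placed by exact match on both strands of TAIR10.1 (RefSeq), whose chromosomes they matched without exception. Every mir779 tag matched once, on the sense strand. Sequences come from this genome or the deposited tags. Copies of mir405 were counted together. Library totals were 33192 and 12129 reads. Shares carry Clopper-Pearson, ratios conditional binomial intervals, with no test between groups. Named ends were the 10 with the most reads per library, the annotated ends and those closing a described run; rarer ends and mir775 were named after their values were seen. Members, lists, comparisons, the 21 nt step and the snoRNA windows were chosen with earlier results of these data known. The methods were tested on simulated data. Alternatives covered tag length, single matches, distinct tags, scaling, windows and borders. Python 3.11.15, numpy 2.4.6, scipy 1.17.1, matplotlib 3.10.9 and RNAfold 2.7.2 were used.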

Additional observations from a re-analysis of the deposited data

How the results depend on the processing

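No paired analysis was possible because each group had 1 library. The ratio of the whole locus was 1.06 with only tags longer than 35 nt, 25.7 with tags of 35 nt or less, 2.13 with single matches, 1.04 with distinct tags counted once, 4.67 relative to the median ratio and 2.14 without the most abundant precursor of each library in the totals. The ratios of inside and snoRNA ends and the 21 nt steps were added after seeing the data. With only tags longer than 35 nt, distinct tags counted once and the median ratio, the inside ratio was 5.73, 1.43 and 25.7 and the snoR128 ratio 0.435, 0.643 and 1.89. For snoR129 it was 0.166 without short tags and 0.719 relative to the median ratio. Tags of 35 nt or less (48 fiery and 2 wild-type reads) gave inside shares of 89.6% and 0%, upstream shares and shares at the annotated ends of 0% in each, a fiery main end of 85.4%, 6 and 2 positions with 1 shared, and an agreement of 0.0208, and no inside or snoRNA ratio. Each mir779 tag had its own 5′ end position, so that counting distinct tags once weighs every position alike. Distinct tags counted once gave inside shares of 51.0% and 36.8%, upstream shares of 23.5% and 47.4% and main ends of 1.96% and 5.26%. Shares at the annotated ends were then 15.7% and 15.8%, shares at the 21 nt steps 23.1% and 71.4%, and the agreement 0.275. The fiery share at the steps was 90.6% with tags longer than 35 nt and 59.0% at exact positions. Ends within 1 nt counted together gave main ends of 40.3% and 69.5%. The annotated ends within 2 nt held 23.9% in fiery. At least 2 reads a position left 33 and 10 positions, 8 of them shared, and thinning left 25.3 in fiery. The other 48 values of these results kept within their intervals or within 1.5 times the count. The causes were not tested. The 34 wild-type reads inside the hairpin limit every comparison there.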
